A study of Mus musculus with 8 samples.

Results

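Type I interferon response genes were followed across 4 populations of mouse dendritic cell progenitors. A list of 36 genes that type I interferon induces was matched to the array by gene symbol, and a gene was kept where a probe set was annotated with that symbol alone. This gave 34 measured members of 19938 genes tested, each with 1 probe set. Isg15 shared its probe set with another symbol, and Ifi44 was not named in the annotation used here. The list leaves out the Gbp, Gimap and Ifi200 families.

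Total RNA came from bone marrow cells sorted with a flow cytometer, and each population was hybridised to 2 Affymetrix arrays, 8 arrays in all. The first population was Id2-GFP- CDP, the common dendritic cell progenitor without reporter fluorescence, and the second was Id2-GFP+ CDP, the same stage with it. The third was Id2-GFP- pre-CD8 and the fourth its counterpart Id2-GFP+ pre-CD8, a progenitor stage whose name points to the CD8 lineage of classical dendritic cells. Titles, sources and descriptions place all 4 populations in mice with an Id2-IRES-GFP reporter, in which GFP is made from the Id2 transcript. The genotype field names heterozygous Id2-IRES-GFP mice for both Id2-GFP- CDP samples and heterozygous Zbtb46-GFP mice for the other 6, so the groups were taken from the titles. If the genotype field is right, any difference from Id2-GFP- CDP cannot be told apart from a difference between mouse lines. In the other populations GFP would then report Zbtb46 and not Id2, also in the reporter comparison of pre-CD8. No treatment with interferon or virus is named for any group. Red cells were lysed, and sorted cells were collected in medium that contained a Flt3 ligand conditioned supernatant. Sort gates, age, strain background and the number of animals per sample were not given in the sources used here.

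Type I interferons bind the Ifnar1 and Ifnar2 receptor chains, which signal through the kinases Jak1 and Tyk2. The signal reaches transcription factors, Stat2 and Irf9 among them, that bind interferon-stimulated response elements (ISRE) in promoters and switch on antiviral genes. Their products sense viral RNA, block its translation, degrade it or restrain viral assembly. Plasmacytoid dendritic cells are known for making large amounts of type I interferon, and stem and progenitor cells are known to express some of these genes without infection.

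Values are log2 of the deposited intensity, differences are log2 differences between group means of 2 arrays with the standard error (SE) of a limma fit over all genes, and a gene was said to rise or fall at an adjusted p under 0.05. Id2 itself measured 5.14 and 6.30 in Id2-GFP- CDP, 9.77 and 9.26 in Id2-GFP+ CDP, 5.90 and 7.18 in Id2-GFP- pre-CD8, and 10.69 and 11.00 in Id2-GFP+ pre-CD8. All 4 arrays of the reporter-positive groups were above all 4 arrays of the negative groups. Zbtb46 separated the classes in the same way, at 6.96 to 8.04 on the positive and 5.48 to 6.13 on the negative arrays. These values therefore do not tell the named reporters apart. The receptors that define dendritic progenitors were well above the all-gene median on every array, with Flt3 at 10.73 to 12.58, Kit at 9.73 to 11.68 and Csf1r at 7.93 to 11.11. The arrays fell into 2 sets by mean intensity, 4 arrays between 461 and 478 (the brighter set) and 4 between 402 and 414 (the dimmer set), and every group had 1 array in either set. The brighter set held replicate 1 of both Id2-GFP- groups and replicate 2 of both Id2-GFP+ groups. The sets were read from the arrays themselves and are named in no label, so differences are also given within each set. In bulk RNA, fewer cells of a type and less RNA per cell cannot be told apart.

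The interferon response genes were highest in Id2-GFP- pre-CD8. The median member measured 9.10 and 8.40 on the 2 arrays of Id2-GFP- pre-CD8, against 7.67 and 7.50 in Id2-GFP- CDP, 7.36 and 8.06 in Id2-GFP+ CDP, and 7.49 and 8.05 in Id2-GFP+ pre-CD8. Both Id2-GFP- pre-CD8 arrays were above the other 6, while the other 3 groups overlapped. Over all genes the median ran only from 6.33 to 6.53. By group mean, 23 members were highest in Id2-GFP- pre-CD8, 10 in Id2-GFP+ pre-CD8, 1 in Id2-GFP- CDP and 0 in Id2-GFP+ CDP. The lowest mean was in Id2-GFP- CDP for 17 members, in Id2-GFP+ CDP for 8, in Id2-GFP+ pre-CD8 for 6 and in Id2-GFP- pre-CD8 for 3. For 16 members both Id2-GFP- pre-CD8 arrays lay above the other 6, a pattern held by 8.22% of all genes.

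**Figure D1:**
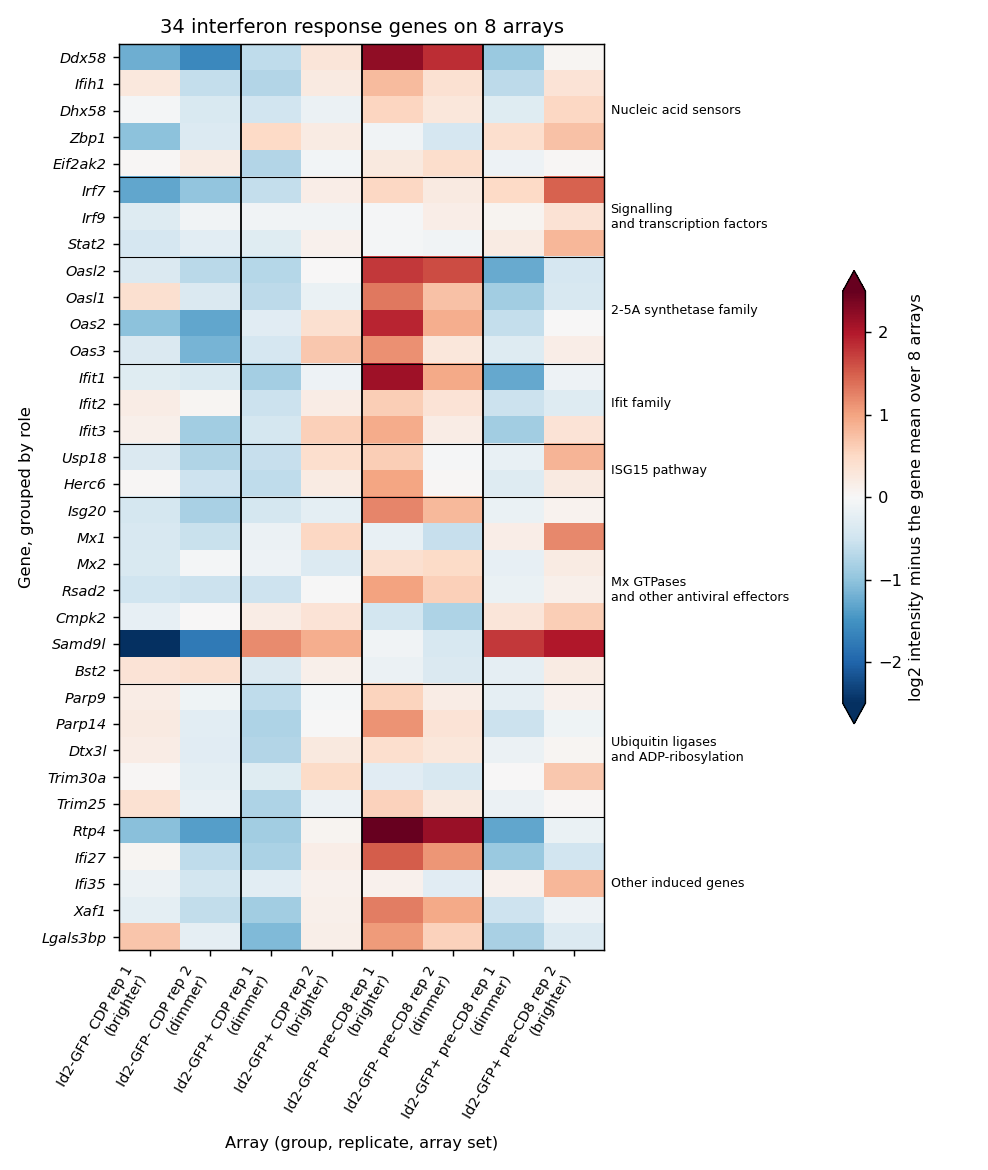
Each row is 1 of the 34 members, ordered by role, and each column 1 of the 8 arrays, and the colour gives the log2 value minus that gene's mean over the 8 arrays. Differences beyond the ends of the colour bar have its end colour. The 2 Id2-GFP- pre-CD8 columns hold most of the strongest positive values, while Samd9l and Cmpk2 are high in the Id2-GFP+ columns.

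In pre-CD8, 9 of the 34 members fell with the reporter, against 2.7% of all genes, and 2 rose, against 3.57%. The 9 were Rtp4, Oasl2, Ddx58, Ifit1, Ifi27, Oas2, Oasl1, Xaf1 and Isg20, and the 2 were Samd9l and Cmpk2. The median member difference was −0.51 (Id2-GFP+ minus Id2-GFP-), and it was −0.51 in the brighter set and −0.59 in the dimmer set, beside −0.01 over all genes. Differences were below 0 for 23 members and above 0 for 11. For 20 members both Id2-GFP+ arrays lay below both Id2-GFP- arrays, against 21.5% of all genes, and for 7 they lay above, against 19%. The call count depended on single arrays. It was 2 without replicate 1 of Id2-GFP- pre-CD8, 4 without either Id2-GFP+ pre-CD8 array, and 7 without either Id2-GFP- CDP array or without replicate 2 of Id2-GFP- pre-CD8. Rtp4 and Oasl2 passed whichever array was left out.

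Between the Id2-GFP- populations, 6 members rose from CDP to pre-CD8, against 1.03% of all genes, and 0 fell, against 0.592%, while 16 members had an unadjusted p under 0.05 in limma in either direction, against 9.19% of all genes. The 6 were Rtp4, Ddx58, Oas2, Oasl2, Isg20 and Rsad2. The median member difference was 0.75, with 0.85 in the brighter set and 0.69 in the dimmer set, beside 0.00 over all genes. Differences were above 0 for 31 members, and for 24 both pre-CD8 arrays lay above both CDP arrays, against 15.5% of all genes. Without replicate 1 of Id2-GFP- CDP the count was 2, without replicate 2 it was 1, and without replicate 1 of Id2-GFP- pre-CD8 it was 2, and each of the 6 calls was lost without at least 1 array. This comparison and the reporter comparison in pre-CD8 share the Id2-GFP- pre-CD8 arrays, so the calls in them are not independent.

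**Figure D2:**
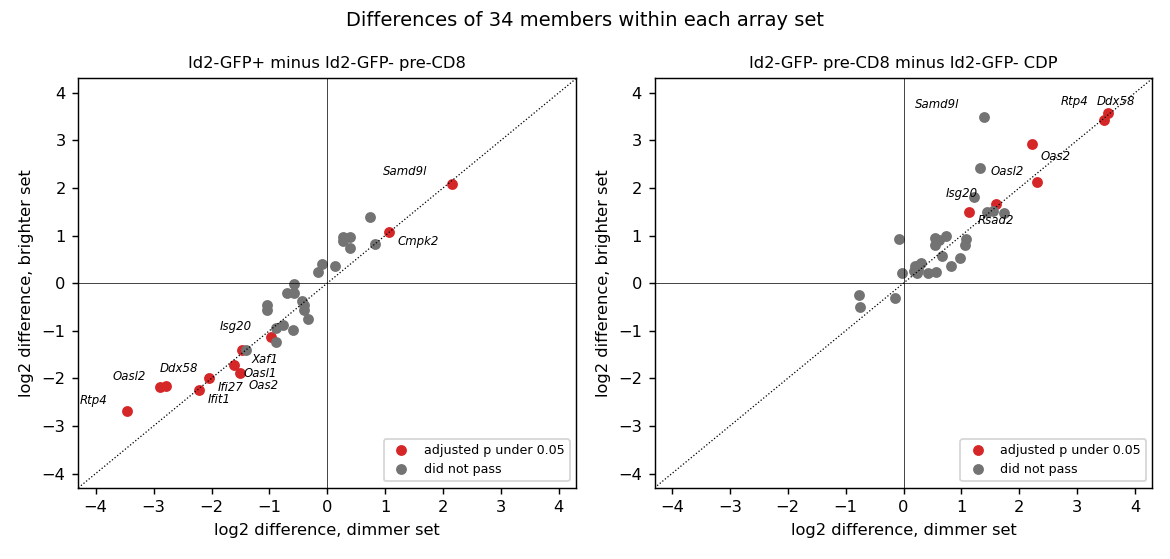
Each point is 1 of the 34 members, with its log2 difference in the dimmer array set on the x axis and in the brighter set on the y axis, for the reporter comparison in pre-CD8 (left) and the stage comparison in Id2-GFP- cells (right); the dotted line marks equal differences and red marks an adjusted p under 0.05. In both panels the called members differ by less than 1 log2 unit between the sets. The left panel runs from Rtp4, at −3.46 in the dimmer and −2.70 in the brighter set, to Samd9l, at 2.15 and 2.09.

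Promoter windows are shown for 6 called members that differ in pattern, 3 with and 3 without the ISRE core. They run from 250 bases before to 50 bases after the RefSeq start on GRCm38.p6, and are written 5′ to 3′ along the gene. Capitals mark the ISRE core, which is GAAA, any 2 bases and GAAA again, on either strand, with overlapping matches merged. Ddx58 (chr4:40239776-40240075, minus strand), Ifit1 (chr19:34640639-34640938, plus strand) and Rsad2 (chr12:26456403-26456702, minus strand) hold it, and were high in Id2-GFP- pre-CD8. Oasl2 (chr5:114896684-114896983, plus strand) had the same expression pattern without these letters in its window, and Samd9l (chr6:3399522-3399821, minus strand) and Cmpk2 (chr12:26468965-26469264, plus strand) rose in Id2-GFP+ pre-CD8.
Ddx58: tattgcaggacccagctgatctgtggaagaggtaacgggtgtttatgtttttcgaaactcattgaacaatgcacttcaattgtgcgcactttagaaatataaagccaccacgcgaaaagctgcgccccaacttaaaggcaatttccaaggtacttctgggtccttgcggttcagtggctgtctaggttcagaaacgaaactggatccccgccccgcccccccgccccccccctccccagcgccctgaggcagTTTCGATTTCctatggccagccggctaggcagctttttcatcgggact
Ifit1: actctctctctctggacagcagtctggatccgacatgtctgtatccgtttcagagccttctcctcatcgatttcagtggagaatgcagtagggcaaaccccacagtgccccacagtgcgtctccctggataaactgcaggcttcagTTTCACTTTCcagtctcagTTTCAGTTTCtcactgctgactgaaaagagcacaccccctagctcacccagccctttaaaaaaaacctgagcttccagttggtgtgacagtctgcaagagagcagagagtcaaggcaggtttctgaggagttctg
Rsad2: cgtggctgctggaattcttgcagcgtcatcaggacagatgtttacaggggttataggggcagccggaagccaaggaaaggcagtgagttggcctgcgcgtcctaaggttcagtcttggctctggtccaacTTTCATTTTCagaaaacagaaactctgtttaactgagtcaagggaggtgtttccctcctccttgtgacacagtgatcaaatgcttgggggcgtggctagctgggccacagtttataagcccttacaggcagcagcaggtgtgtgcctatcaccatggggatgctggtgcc
Oasl2: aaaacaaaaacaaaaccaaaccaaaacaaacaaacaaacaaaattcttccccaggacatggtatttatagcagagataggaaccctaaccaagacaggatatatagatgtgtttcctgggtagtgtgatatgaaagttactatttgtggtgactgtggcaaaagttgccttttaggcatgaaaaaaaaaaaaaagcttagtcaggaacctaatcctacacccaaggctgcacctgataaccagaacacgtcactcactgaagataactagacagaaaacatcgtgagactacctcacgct
Samd9l: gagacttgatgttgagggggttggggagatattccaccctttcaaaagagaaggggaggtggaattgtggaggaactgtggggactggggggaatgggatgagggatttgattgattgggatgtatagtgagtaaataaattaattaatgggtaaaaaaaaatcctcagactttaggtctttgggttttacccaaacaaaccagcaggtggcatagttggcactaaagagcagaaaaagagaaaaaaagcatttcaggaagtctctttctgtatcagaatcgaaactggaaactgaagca
Cmpk2: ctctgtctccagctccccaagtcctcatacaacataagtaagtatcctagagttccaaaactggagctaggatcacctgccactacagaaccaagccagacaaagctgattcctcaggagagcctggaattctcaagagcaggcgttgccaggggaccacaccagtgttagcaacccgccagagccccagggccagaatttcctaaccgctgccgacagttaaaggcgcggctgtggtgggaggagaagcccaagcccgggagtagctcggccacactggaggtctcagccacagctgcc

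The RefSeq promoter table held 24 of the 34 measured members. An ISRE core was found in 10 of the 24 (41.7%), against 3.99% of all genes in the table and 3.44% of its 32851 windows. The 10 were Bst2, Ddx58, Eif2ak2, Ifih1, Ifit1, Ifit3, Oas3, Rsad2, Stat2 and Trim30a. The first base of the core lay 2 bases after the start of Ddx58, 120 bases before that of Rsad2, and 104 and 85 bases before that of Ifit1. Of the 10 called members in the table, 3 held the core and 7 did not, among them Oasl1, Oasl2, Xaf1 and Isg20, which fell with the reporter in pre-CD8. The gamma-activated sequence core, TTCNNNGAA, on either strand, was found in 5 of the 24 members (20.8%), against 9.55% of all genes in the table and 8.3% of its windows. A match describes these letters in this window and is not evidence of binding.

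The oligoadenylate synthetase family makes short adenylate chains that activate the RNA-cutting enzyme RNase L, or, in some members, has other antiviral functions. Oasl2 measured 7.77 and 7.46 in Id2-GFP- CDP, 7.41 and 8.14 in Id2-GFP+ CDP, 9.90 and 9.76 in Id2-GFP- pre-CD8, and 6.87 and 7.71 in Id2-GFP+ pre-CD8. Both Id2-GFP- pre-CD8 arrays stood at least 1 log2 unit above every other array, and the other 3 groups overlapped. The reporter difference in pre-CD8 was −2.54 (SE 0.34, adjusted p = 0.00412), or 5.82-fold lower, and the stage difference in Id2-GFP- cells was 2.22 (SE 0.34, adjusted p = 0.0188). Oas2, an RNA-activated synthetase, measured 6.35 and 6.08, 7.11 and 7.78, 9.28 and 8.30, and 6.79 and 7.40 in the same group order. Here Id2-GFP- CDP was below all other arrays, and Id2-GFP- pre-CD8 above them. Oas2 rose by 2.58 with stage in Id2-GFP- cells (SE 0.38, adjusted p = 0.0158) and fell by 1.70 with the reporter in pre-CD8 (SE 0.38, adjusted p = 0.0353). Oasl1, which restrains translation of Irf7, measured 8.01 and 7.25, 6.97 and 7.44, 8.93 and 8.34, and 6.73 and 7.22. Its reporter difference in pre-CD8 was −1.66 (SE 0.34, adjusted p = 0.0243), while its stage difference of 1.00 did not pass. Oas3 had the same order of the pre-CD8 groups, 8.34 and 7.48 against 6.88 and 7.36, and passed in neither comparison. Oasl1 and Oasl2 are close paralogs, so each value may hold some signal of the other.

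Rtp4, an interferon-induced chaperone of membrane receptors, had the largest fall of all members. It measured 6.84 and 6.51 in Id2-GFP- CDP, 7.02 and 7.94 in Id2-GFP+ CDP, 10.42 and 10.04 in Id2-GFP- pre-CD8, and 6.58 and 7.73 in Id2-GFP+ pre-CD8. The Id2-GFP- pre-CD8 arrays exceeded every other array by over 2 log2 units. The reporter difference in pre-CD8 was −3.08 (SE 0.42, adjusted p = 0.00452), or 8.44-fold lower, and the stage difference in Id2-GFP- cells was 3.55 (SE 0.42, adjusted p = 0.00694), or 11.7-fold higher. The stage call was lost without replicate 2 of Id2-GFP- CDP (adjusted p = 0.0732). Ifi27, a small membrane protein, was bright throughout, at 10.07 and 9.40, 9.23 and 10.20, 11.56 and 11.14, and 9.10 and 9.56. It fell by 2.02 with the reporter in pre-CD8 (SE 0.37, adjusted p = 0.0156). Xaf1, a promoter of apoptosis, measured 6.29 and 5.92, 5.66 and 6.65, 7.81 and 7.47, and 6.0 and 6.40. Its difference was −1.44 (SE 0.33, adjusted p = 0.0395), and 6 of the 8 arrays could each end the call when left out. Lgals3bp, a secreted glycoprotein, did not pass, with 11.14 and 10.66 against 9.26 and 9.73 in pre-CD8, nor did Ifi35, with 9.40 and 9.02 against 9.41 and 10.14.

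Ddx58, whose start-site window with an ISRE core is printed with the promoters, encodes RIG-I, the cytoplasmic sensor of uncapped viral RNA. It measured 6.31 and 5.93 in Id2-GFP- CDP, 6.90 and 7.83 in Id2-GFP+ CDP, 9.74 and 9.38 in Id2-GFP- pre-CD8, and 6.60 and 7.58 in Id2-GFP+ pre-CD8. Its lowest and highest groups were both Id2-GFP-, and the Id2-GFP+ groups lay between them. The stage difference in Id2-GFP- cells was 3.45 (SE 0.40, adjusted p = 0.00620), or 10.9-fold higher, and was lost without replicate 2 of Id2-GFP- CDP (adjusted p = 0.0605). The reporter difference in pre-CD8 was −2.47 (SE 0.40, adjusted p = 0.00883), and was lost without replicate 1 of Id2-GFP- pre-CD8 (adjusted p = 0.0513). The related sensors did not move as far. Ifih1, which encodes MDA5, measured 8.72 and 8.30 against 7.27 and 8.26 in pre-CD8, and Dhx58, which encodes their regulator LGP2, 8.73 and 8.47 against 7.89 and 8.71. Neither passed. Zbp1, a sensor of Z-form nucleic acid that can start necroptosis, measured 6.27 and 6.96, 7.80 and 7.50, 7.20 and 6.87, and 7.70 and 8.02, with all 4 Id2-GFP+ arrays above all 4 Id2-GFP- arrays. Eif2ak2, the translation-blocking kinase PKR, ran from 6.82 to 8.0 over the 8 arrays and did not pass.

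The Ifit proteins bind viral RNA and block its translation. Ifit1 measured 5.58 and 5.50 in Id2-GFP- CDP, 5.02 and 5.75 in Id2-GFP+ CDP, 8.0 and 6.82 in Id2-GFP- pre-CD8, and 4.61 and 5.74 in Id2-GFP+ pre-CD8. It was below the median of all genes in every group but Id2-GFP- pre-CD8, where both arrays were higher and differed from each other by over 1 log2 unit. The reporter difference in pre-CD8 was −2.24 (SE 0.47, adjusted p = 0.0266), and was lost without replicate 1 of either pre-CD8 group. Ifit2 measured 7.84 and 7.57 against 6.69 and 6.91 in pre-CD8 and did not pass. Ifit3, at 7.15 and 6.42 against 5.37 and 6.58, overlapped between the classes, and it has a near-identical paralog.

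Samd9l and Cmpk2 rose with the reporter in pre-CD8. Samd9l, a brake on growth and translation, measured 5.73 and 7.54 in Id2-GFP- CDP, 10.49 and 10.23 in Id2-GFP+ CDP, 9.23 and 8.93 in Id2-GFP- pre-CD8, and 11.08 and 11.32 in Id2-GFP+ pre-CD8. The 4 groups did not overlap, and the order from low to high was Id2-GFP- CDP, Id2-GFP- pre-CD8, Id2-GFP+ CDP and Id2-GFP+ pre-CD8. The reporter difference was 3.72 in CDP (SE 0.49, adjusted p = 0.0204), or 13.2-fold higher, and 2.12 in pre-CD8 (SE 0.49, adjusted p = 0.0427), or 4.36-fold higher. In CDP it was 4.50 in the brighter set and 2.95 in the dimmer set, and 2.82 without replicate 1 of Id2-GFP- CDP, since the arrays of that group lay far apart. The neighbours Id2-GFP+ CDP and Id2-GFP+ pre-CD8 differed by 0.84 (SE 0.49) and did not pass, nor did the stage difference of 2.44 in Id2-GFP- cells (adjusted p = 0.0578). Cmpk2, a mitochondrial nucleotide kinase, measured 8.53 and 8.74, 8.91 and 9.08, 8.28 and 7.97, and 9.03 and 9.35. Both Id2-GFP- pre-CD8 arrays were below the other 6, the reverse of the pattern that 16 members showed. Its reporter difference in pre-CD8 was 1.07 (SE 0.22, adjusted p = 0.0252). Across the list, 4 members had all 4 Id2-GFP+ arrays above all 4 Id2-GFP- arrays (Cmpk2, Mx1, Samd9l and Zbp1), against 5.42% of all genes.

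The other antiviral effectors were mixed. Isg20, an RNA-degrading exonuclease, measured 7.13 and 6.77, 7.13 and 7.33, 8.79 and 8.38, and 7.40 and 7.65. It rose by 1.64 with stage in Id2-GFP- cells (SE 0.23, adjusted p = 0.0143) and fell by 1.06 with the reporter in pre-CD8 (SE 0.23, adjusted p = 0.0339). Rsad2, which encodes viperin, measured 6.45 and 6.41, 6.43 and 6.94, 7.95 and 7.54, and 6.78 and 7.07. Both Id2-GFP- pre-CD8 arrays were above the rest, with a stage difference of 1.31 (SE 0.24, adjusted p = 0.0388), while the reporter difference in pre-CD8 was −0.82 and did not pass. Mx1 and Mx2 belong to a family of GTPases that trap viral particles, and the RefSeq table lists both mouse genes as transcribed pseudogenes. Mx1 was higher in Id2-GFP+ pre-CD8, at 7.04 and 8.09 against 6.70 and 6.30, and Mx2 was lower, at 6.20 and 6.60 against 6.81 and 6.89, and neither passed. Bst2, the virus-tethering protein that also marks plasmacytoid dendritic cells, measured 11.85 and 11.90, 11.15 and 11.64, 11.36 and 11.14, and 11.27 and 11.71. Its Id2-GFP- CDP arrays were above the other 6, and Id2-GFP- pre-CD8 was not raised.

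**Figure D3:**
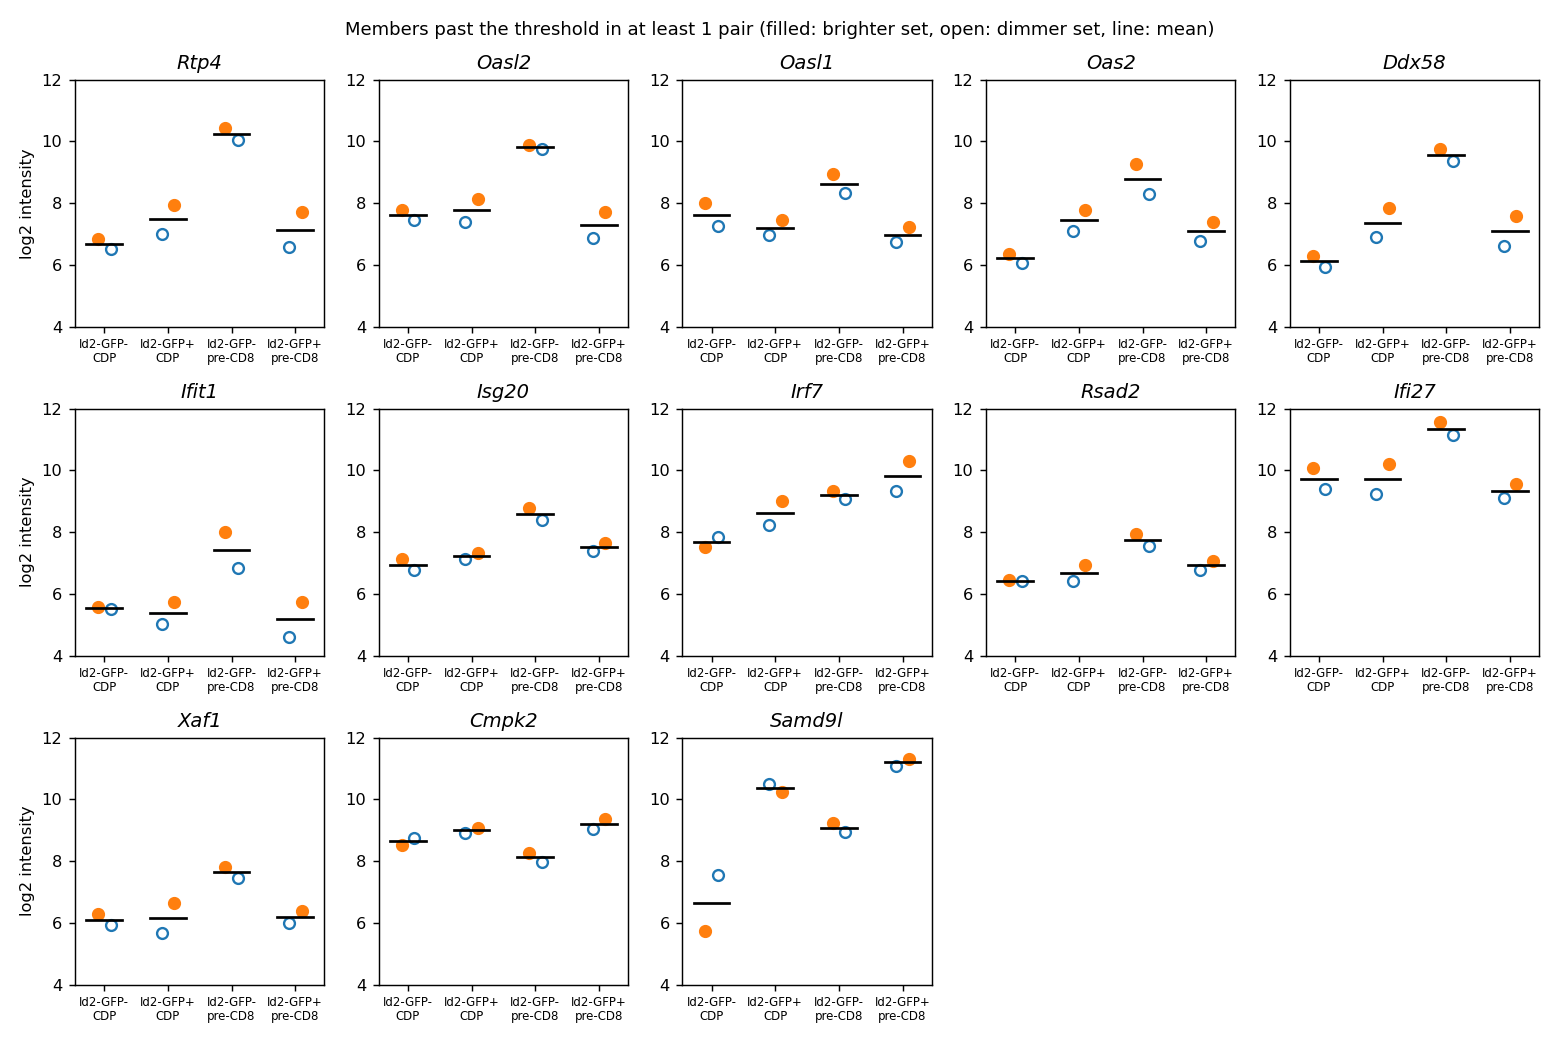
Each panel shows 1 of the 13 members that passed in at least 1 pair of groups, with the log2 value of each array as a point, filled by array set, and the group mean as a line. The Id2-GFP- pre-CD8 points stand above the other groups for Rtp4, Oasl2, Ddx58, Ifit1, Ifi27, Oas2, Oasl1, Xaf1, Isg20 and Rsad2, and not for Samd9l, Cmpk2 and Irf7.

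None of the 3 transcription factors of the response passed in either the reporter or the stage comparisons, and all 3 had both pre-CD8 arrays above both CDP arrays in Id2-GFP- cells. Irf7, which drives interferon alpha genes and is itself induced, measured 7.53 and 7.85 in Id2-GFP- CDP, 8.22 and 9.0 in Id2-GFP+ CDP, 9.34 and 9.06 in Id2-GFP- pre-CD8, and 9.33 and 10.30 in Id2-GFP+ pre-CD8. All 4 pre-CD8 arrays were above all 4 CDP arrays, and the pre-CD8 groups overlapped. Irf9 ran from 9.23 to 9.92 over the 8 arrays. Stat2 measured 9.24 and 9.39, 9.35 and 9.77, 9.60 and 9.58, and 9.86 and 10.50, with Id2-GFP+ pre-CD8 above the other groups. With the reporter in pre-CD8 the differences were 0.62 for Irf7, 0.15 for Irf9 and 0.59 for Stat2. Irf7, Irf9 and Isg20 were the 3 members with all 4 pre-CD8 arrays above all 4 CDP arrays, against 1.07% of all genes. With Id2-GFP- CDP as the baseline, Irf7 rose in Id2-GFP+ pre-CD8 (difference 2.13, SE 0.37, adjusted p = 0.0310), and that call needed both Id2-GFP- CDP arrays and replicate 2 of Id2-GFP+ pre-CD8.

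None of the 7 genes of ISG15 conjugation and of ubiquitin and ADP-ribose transfer passed in any pair of groups. Usp18, which removes ISG15 and dampens the receptor, measured 8.12 and 7.74, 7.92 and 8.91, 9.11 and 8.47, and 8.31 and 9.35, with the pre-CD8 groups overlapping. Herc6, an ISG15 ligase in mice, measured 9.08 and 8.12 against 7.78 and 8.32 in pre-CD8. Parp14, a mono-ADP-ribosyltransferase, measured 9.22 and 8.43 against 7.55 and 7.98. Its partners in the same process, Parp9 and Dtx3l, measured 7.55 and 7.17 against 6.77 and 7.10, and 9.43 and 9.30 against 8.86 and 9.06. For all 3 both Id2-GFP+ pre-CD8 arrays were below both Id2-GFP- arrays. Trim25, which activates RIG-I, had the same direction, at 9.80 and 9.46 against 9.07 and 9.24, and Trim30a the other, at 10.76 and 10.65 against 11.05 and 11.73. Over the list, 13 members passed in at least 1 pair and 21 in none. The share of all genes that passed in at least 1 pair was not computed, so this count has no background beside it. Among the 21, differences ran from −1.40 to 1.47.

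In CDP 1 member passed for the reporter. Samd9l rose, against 0.597% of all genes that rose, and 0 members fell, against 0% of all genes, while 5 members had an unadjusted p under 0.05 in limma in either direction, against 5.51% of all genes. The Samd9l call was lost without either Id2-GFP+ CDP array (adjusted p up to 0.110). The median member difference was 0.14, with 0.25 in the brighter set and −0.05 in the dimmer set. For 10 members both Id2-GFP+ arrays were above both Id2-GFP- arrays, against 13% of all genes. For Bst2 and Eif2ak2 they were below, as they were for 2396 of all 19938 genes. The differences that came next in size and did not pass were 1.25 for Ddx58, 1.23 for Oas2 and 1.03 for Zbp1, and the lowest was −0.72 for Lgals3bp, which measured 10.77 and 9.84 in Id2-GFP- CDP and 8.96 and 10.22 in Id2-GFP+ CDP.

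Rtp4, Oas2, Ddx58 and Isg20 had reporter differences of opposite sign at the 2 stages. Their Id2-GFP+ arrays were both above the Id2-GFP- arrays in CDP and both below them in pre-CD8. Of all genes, 2.38% showed reporter classes without overlap in opposite directions at the 2 stages. None of these members passed for the reporter in CDP. For Isg20 the CDP difference was 0.28 (SE 0.23), and its closest arrays there, Id2-GFP+ and Id2-GFP-, measured 7.129 and 7.125. The reporter difference in pre-CD8 minus that in CDP was −3.88 for Rtp4 (SE 0.60, adjusted p = 0.0700) and −3.72 for Ddx58 (SE 0.56, adjusted p = 0.0700). It was −2.93 for Oas2 (adjusted p = 0.111) and −1.34 for Isg20 (adjusted p = 0.247). So 0 members passed this interaction test in limma, against 0.0351% of all genes above 0 and 0.11% below 0, while 12 members had an unadjusted p under 0.05, against 6.15% of all genes. The median member value of the interaction was −0.60, with −0.71 in the brighter set and −0.44 in the dimmer set.

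**Figure D4:**
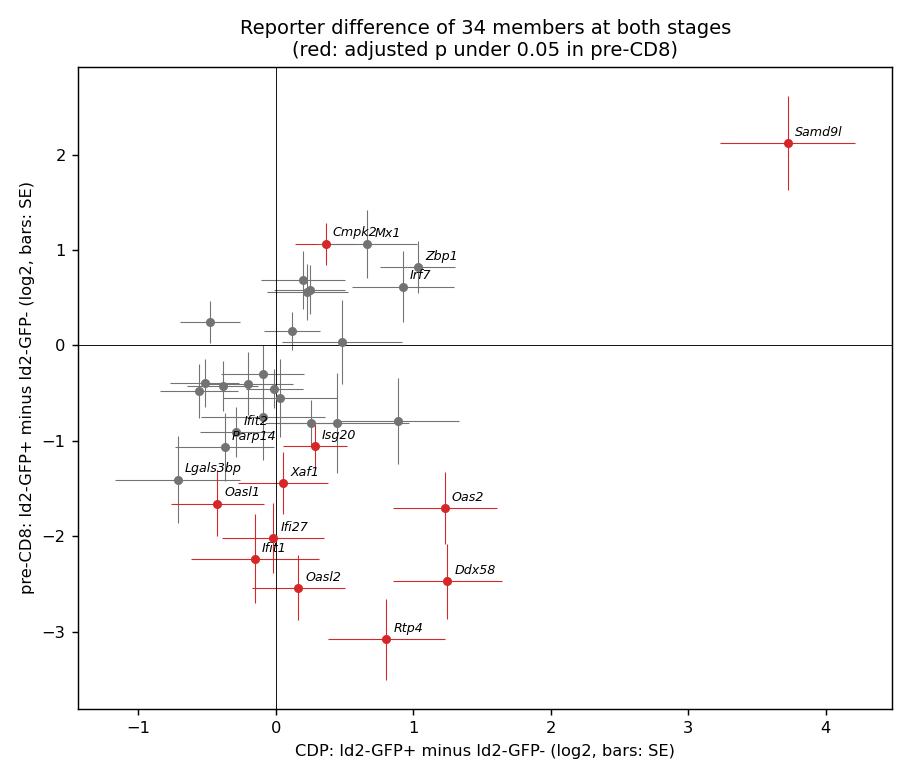
Each point is 1 of the 34 members, with the log2 difference between Id2-GFP+ and Id2-GFP- cells in CDP on the x axis and in pre-CD8 on the y axis. Rtp4, Ddx58, Oas2 and Isg20 lie to the right of 0 and below it, and Samd9l lies far to the upper right at 3.72 and 2.12.

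Between the Id2-GFP+ populations 0 members rose and 0 fell, as did 0% of all genes in either direction. In limma, 2 members had an unadjusted p under 0.05, against 3.22% of all genes. The median member difference was 0.20. For 6 members (Irf7, Irf9, Isg20, Samd9l, Stat2 and Trim25) both pre-CD8 arrays were above both CDP arrays, against 8.94% of all genes. Irf7 had the highest difference, 1.21 (SE 0.37), and Oasl2 the lowest, −0.48 (SE 0.34).

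Across the remaining pairs of groups, 2 members rose in Id2-GFP+ pre-CD8 against Id2-GFP- CDP (1.39% of all genes rose) and 0 fell (0.401%), with 10 at an unadjusted p under 0.05 in limma in either direction (9.87% of all genes). These were Irf7 and Samd9l, whose difference was 4.56 (SE 0.49, adjusted p = 0.00442), or 23.6-fold, and which passed whichever array was left out. In Id2-GFP- pre-CD8 against Id2-GFP+ CDP, 8 members rose (2.08% of all genes) and 0 fell (2.81%), with 20 at an unadjusted p under 0.05 in limma in either direction (14.4% of all genes). These were Rtp4 (2.75), Ddx58 (2.20), Oasl2 (2.06), Ifit1 (2.03), Ifi27 (1.63), Xaf1 (1.48), Isg20 (1.35) and Rsad2 (1.06), and each of these calls was lost without at least 1 array. The count was 0 without replicate 1 of Id2-GFP- pre-CD8, 1 without replicate 1 of Id2-GFP+ CDP, 3 without replicate 2 of Id2-GFP- pre-CD8, and 5 without replicate 2 of Id2-GFP- CDP or either Id2-GFP+ pre-CD8 array. Id2-GFP- CDP had both arrays below the other 6 for 6 members (Ddx58, Irf7, Irf9, Isg20, Oas2 and Samd9l), against 2.61% of all genes.

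With the array set as a block in the same limma model, more members and more genes passed. In pre-CD8 19 members fell with the reporter and 7 rose, against 13.2% and 11% of all genes. With stage in Id2-GFP- cells 21 rose and 2 fell, against 5.82% and 6.65%. In CDP 7 rose and 3 fell with the reporter, against 3.69% and 4.17%, Ddx58 (adjusted p = 0.00218), Oas2 (0.00165) and Zbp1 (0.0196) among the 7. Irf7 was the 1 member that rose with stage in Id2-GFP+ cells (adjusted p = 0.0297), against 0.973% of all genes, and 0 fell, against 1.1%. In Id2-GFP+ pre-CD8 against Id2-GFP- CDP 13 rose and 4 fell, against 6.97% and 8.85%, and in Id2-GFP- pre-CD8 against Id2-GFP+ CDP 23 rose and 2 fell, against 12.1% and 9.88%. For the interaction 12 members fell and 1 rose, against 3.4% and 4.09% of all genes, with adjusted p = 4.39e-05 for Rtp4 and 3.67e-05 for Ddx58. Because the sets were defined from the arrays' own intensities, these values are given as an alternative.

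Most of the interferon genes themselves were dim on all arrays. Exceptions were Ifnl2, at 7.70 to 8.14, and Ifna5, at 6.60 to 7.52, above the all-gene median on every array. The median of 15 interferon genes measured stayed between 5.10 and 5.37 on every array, and Ifnb1 ran from 4.80 to 5.17. In limma 0 of the 15 passed in any pair, with at most 1 at an unadjusted p under 0.05. Over the pairs up to 3.57% of all genes rose, up to 2.81% fell, and 3.22% to 16.1% had an unadjusted p under 0.05. The interferon gene nearest to the threshold in the reporter comparison of pre-CD8 was Ifna2, at 0.64 (SE 0.18, adjusted p = 0.0826). The receptor chain Ifnar1 measured 9.72 and 9.37 in Id2-GFP- CDP, 8.66 and 9.25 in Id2-GFP+ CDP, 9.63 and 9.47 in Id2-GFP- pre-CD8, and 8.95 and 9.37 in Id2-GFP+ pre-CD8. Its Id2-GFP+ arrays were below the Id2-GFP- arrays at both stages, and the differences did not pass. The chain Ifnar2 ran from 11.08 to 11.79, and its groups overlapped. Of 9 receptors and signal transducers, 2 rose with the reporter in pre-CD8 (3.57% of all genes rose) and 0 fell (2.7%). These were Jak2 (1.93, SE 0.31, adjusted p = 0.00892), a cytokine receptor kinase, and Tyk2 (1.11, SE 0.24, adjusted p = 0.0320). For Jak2 2 of the 8 arrays could each end the call when left out, and for Tyk2 5 could. Of 18 sensors and adaptors upstream of interferon, 4 rose and 1 fell in pre-CD8, against the same shares of all genes. The endosomal RNA sensor Tlr7 fell by 3.38 and Tlr3, a double-stranded RNA sensor and marker of classical type 1 dendritic cells, rose by 4.32. The DNA sensor Tlr9 rose by 2.15 and the transcription factor Irf5 by 2.06. Of 15 negative regulators of interferon signalling 0 passed in limma in any pair, with at most 3 at an unadjusted p under 0.05. The 3 were for the reporter in pre-CD8, where 16.1% of all genes had such a p. The phosphatase Ptpn6 came nearest to the threshold there, at 0.60 (SE 0.17).

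Of a wider list of 54 other interferon-stimulated genes, 6 fell with the reporter in pre-CD8 (11.1%, against 2.7% of all genes) and 5 rose (9.26%, against 3.57%), with a median difference of 0.05. The 6 that fell were the immunity-related GTPase Iigp1 (−2.32), the helicases Ddx60 (−1.75) and Mov10 (−1.24), the synthetase family member Oas1b (−1.66), Parp10 (−1.54) and the membrane protein Ifitm2 (−1.14). The risers included the lysosomal reductase Ifi30 (4.07), Ms4a4c (3.30), the growth regulator Slfn2 (3.21) and the membrane protein Ifitm6 (2.95). With stage in Id2-GFP- cells 2 rose, Ddx60 (1.83) and Oas1b (2.02), or 3.7% against 1.03% of all genes. In the same comparison 3 fell, Ifi30 (−2.26), Ms4a4c (−1.96) and Slfn2 (−1.57), or 5.56% against 0.592%. The stage calls of Oas1b and Ms4a4c could each be ended by leaving out 1 of 2 arrays, and those of Ddx60 and Ifi30 by 1 of 3. With the reporter in CDP 2 rose, Ifitm6 (3.84) and Slfn1 (2.43), and 0 fell, against 0.597% and 0% of all genes. The Slfn1 call could be ended by leaving out 1 of 3 arrays, while Ifitm6 passed whichever array was left out.

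Markers of several cell types moved along the same comparisons. Over all genes, 3.57% rose and 2.7% fell with the reporter in pre-CD8, and 0.597% and 0% in CDP. With stage in Id2-GFP- cells these shares were 1.03% and 0.592%. Plasmacytoid dendritic cell markers had a summed linear intensity of 10610 to 13466 in Id2-GFP- pre-CD8, 4633 to 5043 in Id2-GFP+ pre-CD8, 6121 to 7663 in Id2-GFP- CDP and 4857 to 6046 in Id2-GFP+ CDP. Dntt, which is in this list, was its brightest gene in Id2-GFP- pre-CD8 and weighs heavily in these sums. It measured 11.86 and 12.07 there, against 7.28 and 8.17 in Id2-GFP+ pre-CD8. The median marker measured 8.32 and 8.81 against 7.65 and 7.72 in the same groups. Of the 18 markers, 7 fell with the reporter in pre-CD8 and 0 rose. Siglech, a defining surface marker, measured 8.53 and 10.44 in Id2-GFP- pre-CD8 against 7.84 and 7.81 in Id2-GFP+ pre-CD8. In CDP it measured 8.20 and 9.50 in Id2-GFP- and 8.13 and 8.12 in Id2-GFP+ cells, so the Id2-GFP- groups overlapped between the stages. Differences were below 0 for 12 of these markers and above 0 for 6. Both Id2-GFP+ arrays were lower for 11, against 21.5% of all genes, and higher for 4, against 19%. Il3ra was among the 4, at 8.63 and 8.38 in Id2-GFP- pre-CD8 against 9.18 and 9.39 in Id2-GFP+ pre-CD8. B lineage markers summed to 2820 to 3985 in Id2-GFP- pre-CD8 and 1055 to 1307 in the other groups, with 7 of 14 lower and 1 higher with the reporter in pre-CD8. Classical type 1 dendritic cell markers summed to 20140 to 28509 in Id2-GFP+ pre-CD8 and 7492 to 8313 in Id2-GFP- pre-CD8, and 10 of 15 rose there. Neutrophil and granule markers summed to 42710 to 49742 against 13574 to 17467 in pre-CD8, and 10 of 15 rose and 1 fell. In CDP they summed to 62164 to 94995 in the Id2-GFP+ arrays and 18166 to 30804 in the Id2-GFP- arrays, and 10 of 15 rose. With the reporter in pre-CD8, monocyte markers (12) had 4 risers and 1 faller, T, NK and ILC markers (16) 4 and 1, and erythroid and megakaryocyte markers (9) 0 and 0. With stage in Id2-GFP- cells, 7 of 12 monocyte markers fell and 0 rose, from a sum of 12386 to 14165 in CDP to 3108 to 3402 in pre-CD8, 6 of 14 B lineage markers rose and 0 fell, and 4 of 18 plasmacytoid dendritic cell markers rose and 1 fell. No value is 0 after RMA, so absence of a marker cannot be read from these arrays. The part of these cell types in the members' differences was not tested.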

How the data were processed

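The authors deposited 1 table of linear intensity values for 28853 probe sets on 8 arrays, made with RMA in Affymetrix Expression Console, per the submitters' processing notes. Versions and a build are not given in the sources used here. RMA subtracts background, is meant to equalise the arrays and merges the probes of a set, which compresses differences of dim genes. The deposited arrays were still not level, with mean intensities from 402 to 478. Here log2 of the deposited intensity was taken without further normalization, since the values were linear where the design had assumed log2.

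The array annotation gave 1 symbol to 21789 probe sets, several to 1621 and no entry to 5443. The probe set with the highest mean over the arrays stood for each of 19938 genes. Promoter windows and chromosomes came from RefSeq (GRCm38.p6), and all 34 members matched its gene table.

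All 8 arrays entered a single limma 3.58.1 fit (R 4.3.3) with 4 group means and a variance trend, on 4 residual degrees of freedom. Tests were two-sided, with Benjamini-Hochberg adjustment over all genes, and 0.05 as the threshold. The script was tested on simulated data. Python 3.11.15 was used for tables and figures. The members and lists were chosen with earlier results of these data known. Every member was named with values, in full for those that passed in any pair and for the extremes of each reporter comparison. Each other list was described by its counts and up to 4 genes with the smallest p. A few genes of other lists, Ifnb1, Ifnar1, Ifnar2 and Siglech among them, were named outside this rule.

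Replicate numbers did not pair the samples: the correlation of same-numbered deviations from group means ran from −0.69 to 0.71, while that of arrays of the same intensity set ran from 0.63 to 0.71 over the 6 pairs of groups. Whether the replicates are separate animals is not stated in the labels. The p-values therefore reflect array-to-array spread alone, possibly technical, and the number of arrays limits the precision. Close paralogs (Oasl1 and Oasl2, Mx1 and Mx2, Ifit3, Trim30a) are less certain. Alternatives were the array set or the replicate number as a block, quantile normalization, median centring, no variance trend, genes with a mean log2 under 6 left out, the mean of probe sets, the compared groups alone, and each array left out.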

Additional observations from a re-analysis of the deposited data

Results flagged for a closer look

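The reporter difference had opposite directions at the 2 stages, with no overlap between the arrays at either stage, for 4 members. None of the 4 passed for the reporter in CDP, where the Isg20 arrays were nearly level (difference 0.28, SE 0.23). The reporter difference in pre-CD8 minus that in CDP was −3.88 for Rtp4, −3.72 for Ddx58, −2.93 for Oas2 and −1.34 for Isg20 on the log2 scale. The limma test of this difference itself did not pass for any of them (adjusted p from 0.0700 to 0.247), and passed for all 4 with the array set as a block (adjusted p from 3.67e-05 to 0.0012).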

How the results depend on the processing

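All 28 member calls kept their direction under every alternative, all 28 passed with the array set as a block, and 3 passed with every single array left out (Rtp4 and Oasl2 for the reporter in pre-CD8, Samd9l in Id2-GFP+ pre-CD8 against Id2-GFP- CDP). With the array set as a block the number of called members went from 1 to 10 for the reporter in CDP, from 11 to 26 for the reporter in pre-CD8, from 6 to 23 for stage in Id2-GFP-, from 0 to 1 for stage in Id2-GFP+, from 2 to 17 in Id2-GFP+ pre-CD8 against Id2-GFP- CDP, from 8 to 25 in Id2-GFP- pre-CD8 against Id2-GFP+ CDP, and from 0 to 13 for the interaction. With the replicate number as a block, 14 of the 28 calls were lost, and the counts were 4 for the reporter in pre-CD8, 3 for stage in Id2-GFP- and 4 in Id2-GFP- pre-CD8 against Id2-GFP+ CDP, the other counts being unchanged. Quantile normalization gave 17, 11 and 15 for these 3 comparisons, 4 in Id2-GFP+ pre-CD8 against Id2-GFP- CDP and 6 for the interaction. The interaction had 1 call with median centring and 2 with dim genes left out. With single arrays left out, counts ran from 0 to 1, 2 to 11, 1 to 7, 0 to 0, 1 to 2, 0 to 7 and 0 to 0 in the same order as for the array set. The interaction has no value in the compared groups alone, since it needs all 4. Median differences moved by less than the spread between replicates under every alternative. Several alternatives could not move them, because each member's difference is the same there by design. These were both blocks, no variance trend, the mean of probe sets and the compared groups alone. The direction of the calls was fixed in these too, and with dim genes left out. The causes were not tested. With 2 arrays a group, and no detection calls used here, dim members such as Ifit1 have the least certain sizes.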

Other observations

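Isg15, the ubiquitin-like protein of the response, was left out of every test because its probe set is also annotated to Gm9706. That probe set measured 6.89 and 6.72 in Id2-GFP- CDP, 6.86 and 7.08 in Id2-GFP+ CDP, 7.34 and 6.86 in Id2-GFP- pre-CD8, and 6.82 and 7.08 in Id2-GFP+ pre-CD8. All 4 groups lay within a narrow range and overlapped, unlike Rtp4 or Ddx58.

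Rsad2 and Cmpk2, singled out after their values were seen, are neighbours on chromosome 12 with start sites 12763 bases apart (GRCm38.p6). Both Id2-GFP- pre-CD8 arrays were above the other 6 for Rsad2 and below the other 6 for Cmpk2.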
